A study of Mus musculus with 34 samples.

Results

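Wnt ligand genes were followed through the differentiation of mouse EpiSC (epiblast stem cells, a primed state of pluripotency) into definitive endoderm (DE, the precursor of gut, liver and pancreas). The genes are Wnt3, Wnt3a, Wnt8a, Wnt11, Wnt5a, Wnt5b, Wnt4, Wnt6 and Wnt7b, taken by name from both count tables. They are 9 of the 19 Wnt ligand genes and of the 53655 genes in those tables. RNA was sequenced from 34 libraries, 17 of DE and 17 of EpiSC, of 18 lines of 7 inbred strains, and 16 lines gave both. DE came from 4 lines of PWK/PhJ, 5 of C57BL/6J, 1 of CAST/EiJ, 1 of DBA/2J, and 2 for every one of WSB/EiJ, NZO/HiLtJ and NOD/ShiLtJ. EpiSC came from 3 lines of PWK/PhJ, 5 of C57BL/6J, 1 of DBA/2J, and 2 for every one of CAST/EiJ, WSB/EiJ, NZO/HiLtJ and NOD/ShiLtJ.

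To make DE, cells on laminin were kept for 16 h in activin A at 40 ng/mL with CHIR at 3 uM, a GSK3 inhibitor that switches on the intracellular Wnt response without any ligand. A further 24 h followed in activin A at 100 ng/mL and LDN-193189 at 100 nM, which blocks BMP receptors, and cells carrying CXCR4 on their surface were collected on magnetic beads. The feeder layer of EpiSC was irradiated mouse embryonic fibroblasts, and the N2B27 medium held FGF at 12.5 ng/mL, activin A at 20 ng/mL and the tankyrase inhibitor NVP-TNKS656 at 175 nM, which dampens the β-catenin response. Both cell types were thus cultured with agents that act on the Wnt pathway below its ligands. DE libraries were made with a low-input kit that amplifies cDNA (12 cycles) and EpiSC libraries with a stranded polyA kit, so a kit effect and a cell type effect cannot be told apart. In such bulk samples, fewer cells of a type and less RNA per cell cannot be told apart either.

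Wnt proteins are secreted, lipid-modified glycoproteins that bind Frizzled receptors. With the co-receptors Lrp5 and Lrp6 they stabilise β-catenin (the canonical pathway), and with Ror and Ryk receptors they steer cell polarity and movement. In the mouse embryo Wnt3 is needed for the primitive streak, Wnt3a and Wnt8a are expressed in the streak region, and Wnt5a and Wnt11 are known for polarity signalling in gastrulating tissue.

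Some Wnt ligand genes lie close together: in GENCODE M21 (GRCm38), Wnt6 (chr1:74771892-74785322) lies 6.2 kb from Wnt10a, Wnt3a (chr11:59248033-59290752) 16.2 kb from Wnt9a and Wnt3 (chr11:103774150-103817957) 24.3 kb from Wnt9b. The other genes are Wnt4 (chr4:137277489-137299726), Wnt5a (chr14:28504750-28527448), Wnt5b (chr6:119432531-119544347), Wnt7b (chr15:85535437-85582473), Wnt8a (chr18:34542313-34548273) and Wnt11 (chr7:98835112-98855195). Exons of Wnt11, Wnt5a and Wnt7b share 364, 358 and 324 bases with a gene on the opposite strand, and as the strand setting of the counting is not given, reads of the partners may be mixed.

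The totals ran from 23.8 to 67.7 M counts (M for mega) in DE, with a median of 28.0 M, and from 25.6 to 33.8 M in EpiSC, with a median of 27.7 M. The endoderm transcription factor Sox17 had a median of 1092 CPM (counts scaled to an equal library size per M counts, with TMM; range 347.0 to 1402) in DE and 4.92 CPM (0.489 to 28) in EpiSC. The pluripotency factor Pou5f1 had a median of 2.64 CPM (0.824 to 83.6) in DE and 594.8 CPM (387.6 to 741.8) in EpiSC. Of the DE libraries, 3 stood apart by the lowest sums of 8 endoderm markers: NOD/ShiLtJ line AC576 at 1272 CPM, NOD/ShiLtJ line AC595 at 3412 CPM and PWK/PhJ line AC699 at 4693 CPM, against 6277 to 12955 CPM in C57BL/6J. Single markers of AC699 were not all low. Its Sox17 stood at 1212 CPM (918.0 to 1402 in C57BL/6J DE), its Foxa2 at 149.4 CPM (75.6 to 121.7) and its Cxcr4 at 59.5 CPM (62.3 to 84). Pou5f1 stood at 83.6, 24.1 and 19.1 CPM in AC576, AC595 and AC699 and at 0.824 to 12.6 CPM in C57BL/6J DE. The sums of 7 epiblast markers, Pou5f1 among them, were lower there, at 1176, 1927 and 1740 CPM, against 3316 to 4267 CPM in C57BL/6J DE. This sum does not separate the cell types, with medians of 3113 CPM in DE and 2672 CPM in EpiSC. By edgeR, 2 of the 7 were higher in DE than in EpiSC (Fgf5, log2 fold 2.46, and Otx2, 1.96) and 5 were lower. Of these 7, 2 were higher and 3 lower by edgeR in NOD/ShiLtJ DE against C57BL/6J DE. The tests of DE against EpiSC, of strain in DE, of PWK/PhJ DE and of the interaction are given with and without these 3 libraries. NOD/ShiLtJ DE consists of AC576 and AC595 alone, so its contrast is given without AC576 and has no form without both, and levels and ranges in DE include all 3.

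On the scale that allows genes to be compared, CPM per kb of exon, Wnt8a (median 17.7) and Wnt3 (11.7) led in EpiSC. Wnt5b (3.6), Wnt5a (3.21) and Wnt11 (1.27) followed, and Wnt4 (0.261), Wnt7b (0.21), Wnt6 (0.0336) and Wnt3a (0.0128) were low. Neighbours in this order overlapped between libraries except Wnt3 and Wnt5b, whose closest libraries were at 7.13 and 7.07 CPM per kb. In DE the order by median was Wnt3 (5.95), Wnt11 (3.46), Wnt5a (1.44), Wnt5b (1.15), Wnt7b (0.804), Wnt4 (0.655), Wnt8a (0.157), Wnt6 (0.133) and Wnt3a (0), and all neighbours overlapped.

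**Figure D1:**
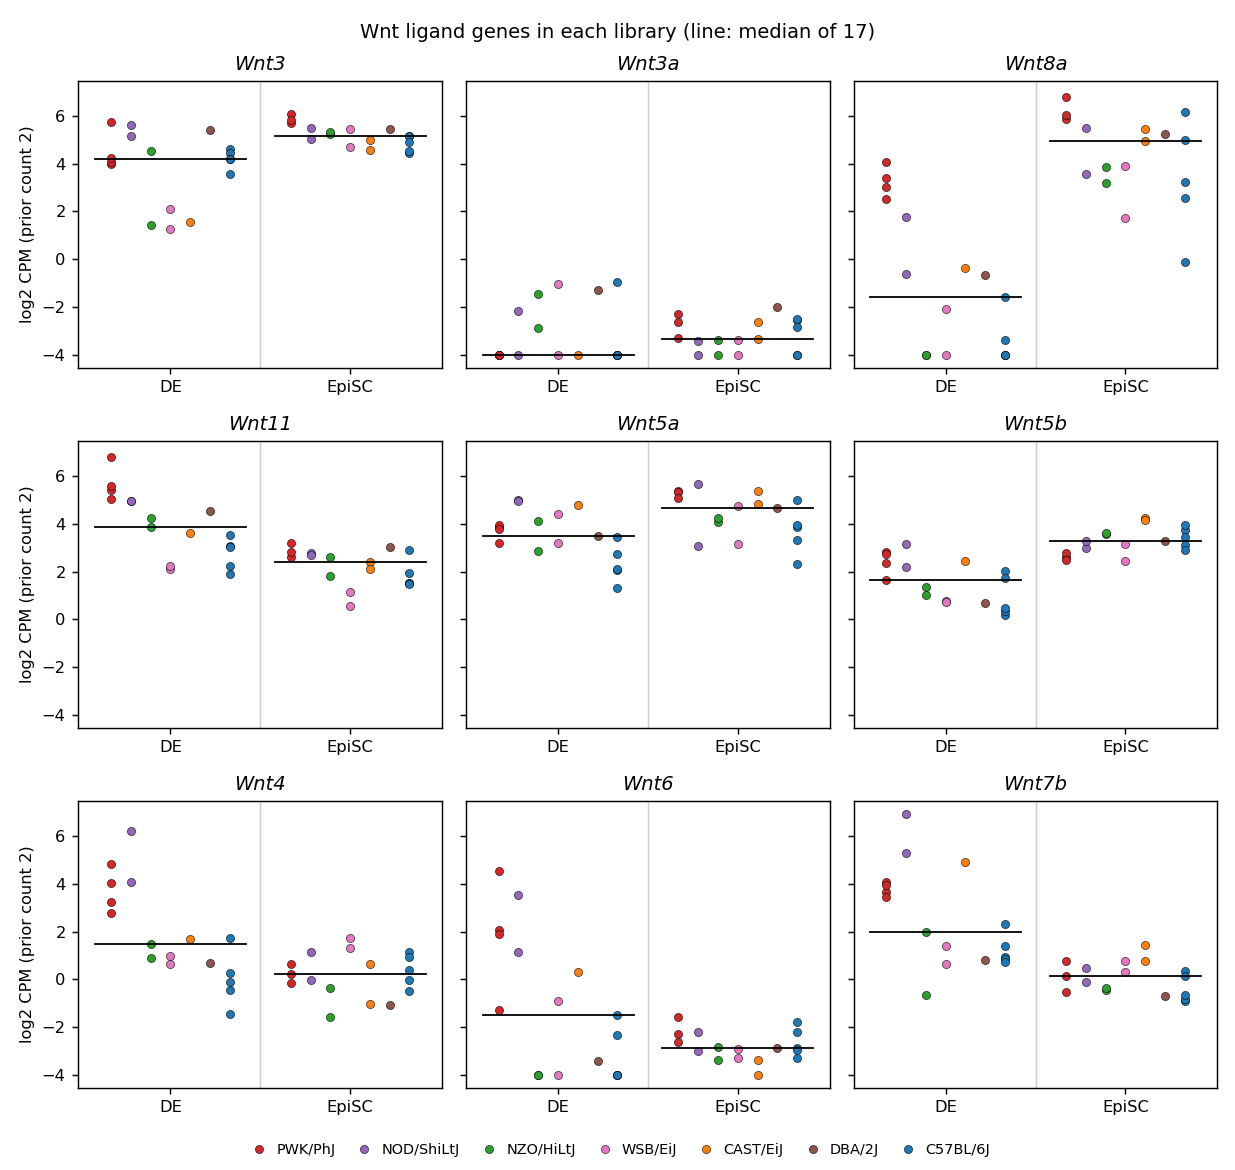
Level of each of the 9 genes in every library as log2 CPM (y axis, prior count of 2), for DE and EpiSC, with strains from PWK/PhJ on the left to C57BL/6J on the right within each cell type and a line at the median of 17 libraries. The median of Wnt8a is far lower in DE than in EpiSC, with the 4 PWK/PhJ libraries the highest of DE, while Wnt4, Wnt6, Wnt7b and Wnt11 spread widely between strains in DE.

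The gene with the most transcript per kb was Wnt3 in 8 DE libraries, Wnt11 in 5, Wnt5a in 2 and Wnt7b in 2. In EpiSC it was Wnt8a in 9 libraries and Wnt3 in 8. All 5 C57BL/6J DE libraries were led by Wnt3 with 53.8% to 62.9% of the summed signal, all 4 PWK/PhJ DE libraries by Wnt11 with 23.8% to 38.8%, and both WSB/EiJ DE libraries by Wnt5a with 23.8% and 40.7%. The 9 genes summed to 4.82 CPM per kb in the lowest DE library (WSB/EiJ line AC627) and to 80 in the highest (NOD/ShiLtJ line AC576), against 13.7 (C57BL/6J line 4) and 90.7 (PWK/PhJ line AC698) in EpiSC. Apart from AC576, AC595 and AC699 (80, 38.2 and 78.4), the highest sum of a DE library was 32.9 (PWK/PhJ line AC705).

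**Figure D2:**
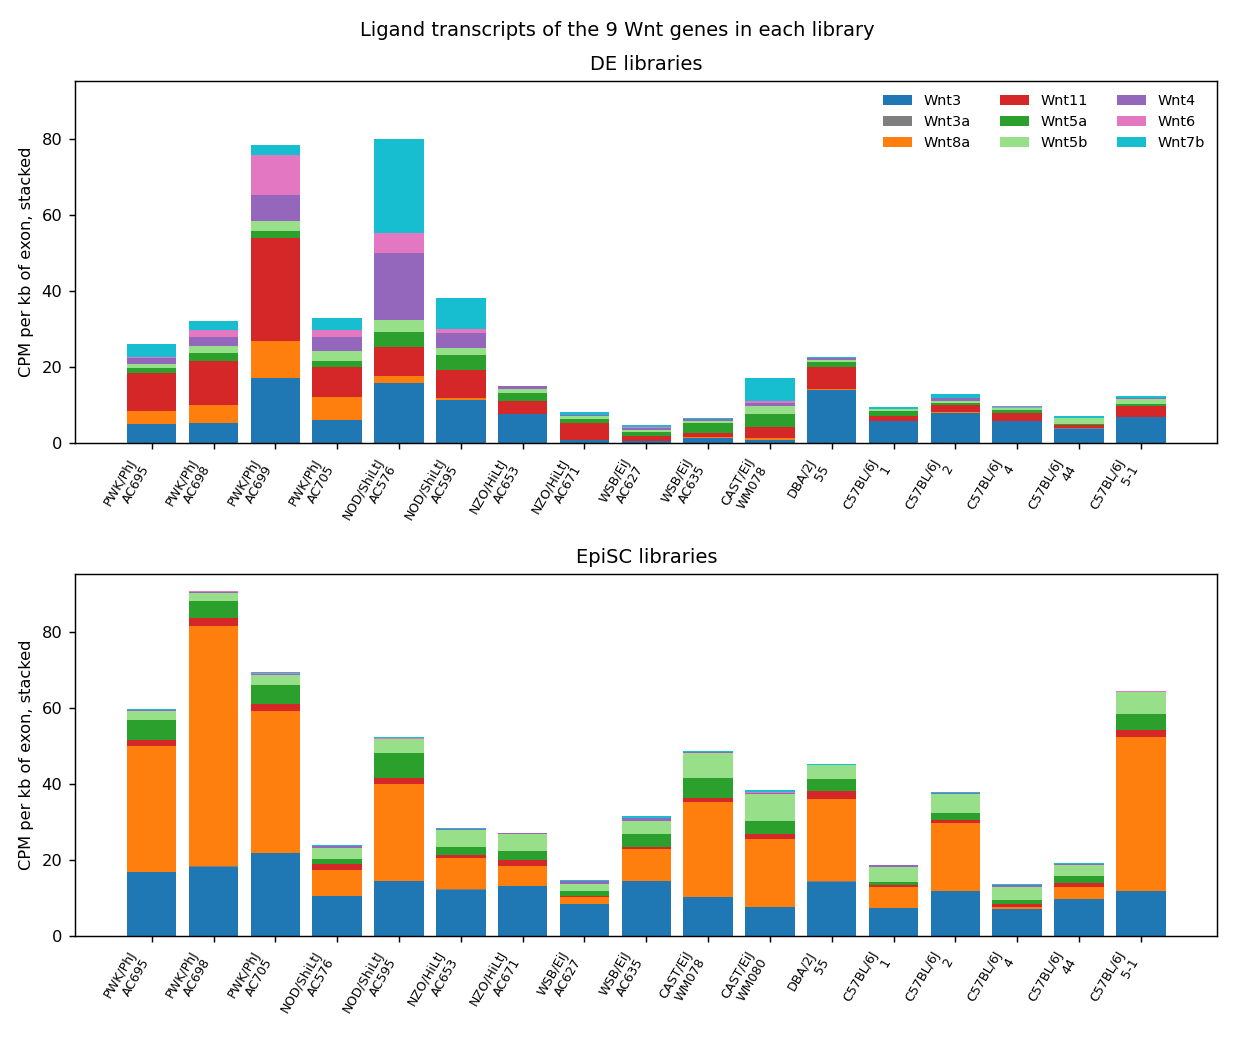
Stacked CPM per kb of exon (y axis) of the 9 genes in each DE library (top) and EpiSC library (bottom), with the strain and line under each bar. Wnt8a and Wnt3 make up most of each EpiSC bar, whereas the leading gene of a DE bar differs between strains and lines, with sums from 4.82 to 80.

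The sequences upstream of Wnt11, Wnt6 and Wnt5b are shown because these genes are among those called in the comparisons that follow. RefSeq (GRCm38.p6) gave start sites for 6 of the 9 genes, and Wnt5a, Wnt7b and Wnt8a were not matched. Each sequence is the 250 bases before a start, 5′ to 3′ on the gene's strand. The first of 2 starts of Wnt11 gives chr7:98834862-98835111 on the plus strand, Wnt6 at chr1:74771642-74771891 on the plus strand and the most upstream of 3 starts of Wnt5b at chr6:119544348-119544597 on the minus strand. Capitals mark motif matches.
Wnt11: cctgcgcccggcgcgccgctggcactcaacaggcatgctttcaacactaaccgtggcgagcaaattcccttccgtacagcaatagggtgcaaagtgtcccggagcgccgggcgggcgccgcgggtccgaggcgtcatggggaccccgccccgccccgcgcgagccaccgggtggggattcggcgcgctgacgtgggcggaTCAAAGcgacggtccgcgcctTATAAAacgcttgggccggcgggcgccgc
Wnt6: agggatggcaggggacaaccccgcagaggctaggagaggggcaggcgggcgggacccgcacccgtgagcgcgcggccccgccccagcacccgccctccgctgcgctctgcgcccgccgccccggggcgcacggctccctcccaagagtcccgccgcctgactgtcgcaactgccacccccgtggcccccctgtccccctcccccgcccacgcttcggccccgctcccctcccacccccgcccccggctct
Wnt5b: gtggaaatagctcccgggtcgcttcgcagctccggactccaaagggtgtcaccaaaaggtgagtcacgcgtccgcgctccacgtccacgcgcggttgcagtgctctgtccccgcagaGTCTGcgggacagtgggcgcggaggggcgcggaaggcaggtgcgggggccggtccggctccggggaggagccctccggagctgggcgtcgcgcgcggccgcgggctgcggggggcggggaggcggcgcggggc

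Both strands were searched for 4 short motifs. CTTTGA, the core bound by the TCF/LEF factors that carry the canonical signal, was in the Wnt11 window on the reverse strand, beginning 50 bases before the start, and 13.8% of 32851 windows of this length held it. TATAAA, the TATA box, was in the same window 29 bases before the start, and 12.4% of windows held it. CAGAC, a motif of the SMAD factors downstream of activin, was in the Wnt5b window on the reverse strand, 133 bases before the start, and 42.2% of windows held it. The T-box motif GGTGTGA was in none of these 3 windows and in 3.33% of all. No match overlapped another, and the Wnt6 window held none of the 4. Windows that are not printed held matches too. The most downstream of the Wnt5b starts had CTTTGA 71 bases and CAGAC 14 bases before it. CAGAC was also 114 bases before the other Wnt11 start and 135 bases before the Wnt3 start. The GC content was 70.8% for Wnt11, 79.6% for Wnt6 and 75.2% for Wnt5b, where the median of all windows was 52.4% and the 90th percentile 69.2%. They held 37, 28 and 35 CpG dinucleotides, where the median was 6. A match is a description of letters and not of a bound site.

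The comparison of DE with EpiSC asks which ligand genes change as endoderm forms. Of the 9 genes, 4 rose in DE (Wnt11, Wnt7b, Wnt4 and Wnt6), 4 fell (Wnt8a, Wnt5b, Wnt3 and Wnt5a) and Wnt3a did not pass the test (edgeR's quasi-likelihood test, Benjamini-Hochberg adjusted p under 0.05 over 20907 genes, strain as a term). Among all genes tested, 77.2% passed, 37.3% higher and 39.9% lower, so 8 of 9 is near the background. The median log2 fold was 0.46 over the 9 genes and -0.06 over all genes.

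Wnt8a, a ligand of the canonical pathway, had the largest difference of the 9. Its level was 0 to 16.9 CPM with a median of 0.274 in DE, against 0.846 to 110.4 CPM with a median of 31 in EpiSC. The cell types overlapped through the 4 PWK/PhJ DE libraries (5.73, 8.18, 16.9 and 10.5 CPM), NOD/ShiLtJ line AC576 (3.36 CPM) and low EpiSC lines such as C57BL/6J line 4. It was lower in DE in 16 of 16 lines. The log2 fold was -5.74 ± 0.71 (SE; edgeR adjusted p = 2.14e-08), and as 6 DE libraries held 0 counts of Wnt8a this fitted value is no bound. Summed over libraries, 1660 counts in DE stood against 15828 in EpiSC, and 1497 of the DE counts were from PWK/PhJ.

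Wnt3, the canonical ligand of the primitive streak, led 8 DE libraries per kb although it fell. It had 2.31 to 52.8 CPM with a median of 18.3 in DE, against 22 to 67 CPM with a median of 36.1 in EpiSC. The ranges overlapped, and Wnt3 was lower in DE in 15 of 16 lines. The log2 fold was -1.17 ± 0.29 (SE; edgeR adjusted p = 0.000731). The lowest DE values belonged to both WSB/EiJ lines (2.31 and 4.3 CPM), NZO/HiLtJ line AC671 (2.64 CPM) and the CAST/EiJ line WM078 (2.84 CPM).

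Wnt5b and Wnt5a, ligands best known for signalling without β-catenin, both fell. Wnt5b had 1.05 to 8.75 CPM with a median of 3.04 in DE, against 5.44 to 18.7 CPM with a median of 9.54 in EpiSC, and was lower in DE in 15 of 16 lines. Its log2 fold was -1.65 ± 0.26 (SE; edgeR adjusted p = 1.17e-06). Wnt5a had 2.43 to 31.5 CPM with a median of 11.3 in DE, against 4.89 to 51.5 CPM with a median of 25.1 in EpiSC.

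The ranges of Wnt5a overlapped widely, and it was lower in DE in 12 of 16 lines, with a log2 fold of -0.91 ± 0.25 (SE; edgeR adjusted p = 0.00188). Markers of fibroblasts, which serve as feeders of EpiSC, fell too: 14 of 15 were lower in DE and 0 were higher, and their sum was 175.7 to 1849 CPM in DE and 150.0 to 4383 CPM in EpiSC. In EpiSC the lowest Wnt5a value and the lowest fibroblast sum were both in C57BL/6J line 1, and the highest of each in NOD/ShiLtJ line AC595. The part of feeder RNA in the Wnt5a and Wnt5b differences was not tested.

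Wnt11, known for polarity signalling, rose with the narrowest range over the lines of the 4 genes that rose. It had 3.63 to 112.5 CPM with a median of 14.3 in DE, against 1.4 to 9.19 CPM with a median of 5.26 in EpiSC. In 15 of 16 lines DE had the higher level, the exception (C57BL/6J line 44) being a difference of -0.05 on the log2 CPM scale, and the ranges overlapped only through the low lines of C57BL/6J and WSB/EiJ. The log2 fold was 1.72 ± 0.23 (SE; edgeR adjusted p = 7.08e-08). All 4 PWK/PhJ DE libraries (42, 48.2, 112.5 and 32.4 CPM) stood above every other DE library.

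Wnt7b, a canonical ligand of developing epithelia, had 0.577 to 121.1 CPM with a median of 3.94 in DE, against 0.474 to 2.65 CPM with a median of 1.03 in EpiSC. In 14 of 16 lines DE had the higher level, and the high libraries were those of NOD/ShiLtJ, CAST/EiJ and PWK/PhJ. The log2 fold was 2.65 ± 0.41 (SE; edgeR adjusted p = 9.9e-07). Wnt4, a ligand needed in kidney and female gonad development, had 0.299 to 73.6 CPM with a median of 2.75 in DE, against 0.274 to 3.24 CPM with a median of 1.09 in EpiSC.

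DE had more Wnt4 in 11 of 16 lines, with a log2 fold of 1.66 ± 0.52 (SE; edgeR adjusted p = 0.005), and the 5 lines in which it was lower were of C57BL/6J and WSB/EiJ. Wnt6, a ligand of epithelia, was close to the limit of detection in EpiSC, with 44 counts summed over 17 libraries and at most 7 in one. In DE it had 1449 counts, 606 of them in PWK/PhJ line AC699 and 327 in NOD/ShiLtJ line AC576, and 0 counts in 6 libraries. The limit that 3 counts allow was 0.0443 to 0.126 CPM per library in DE and 0.0887 to 0.117 CPM in EpiSC.

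DE had more Wnt6 in 9 of 16 lines and less in 7, with a fitted log2 fold of 2.81 ± 0.90 (SE; edgeR adjusted p = 0.00575). Under a cell line block the log2 fold of Wnt6 was 1.82 and the edgeR adjusted p 0.0771. Without the NOD/ShiLtJ and AC699 DE libraries it was 1.67 with an edgeR adjusted p of 0.0511, and the other 7 calls held, against 76.9% of all genes. Wnt3a had 53 counts over the DE libraries, 11 of which held 0, against 28 counts in EpiSC, of which 5 libraries held 0. No direction was detectable at this depth (edgeR adjusted p = 0.625).

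**Figure D3:**
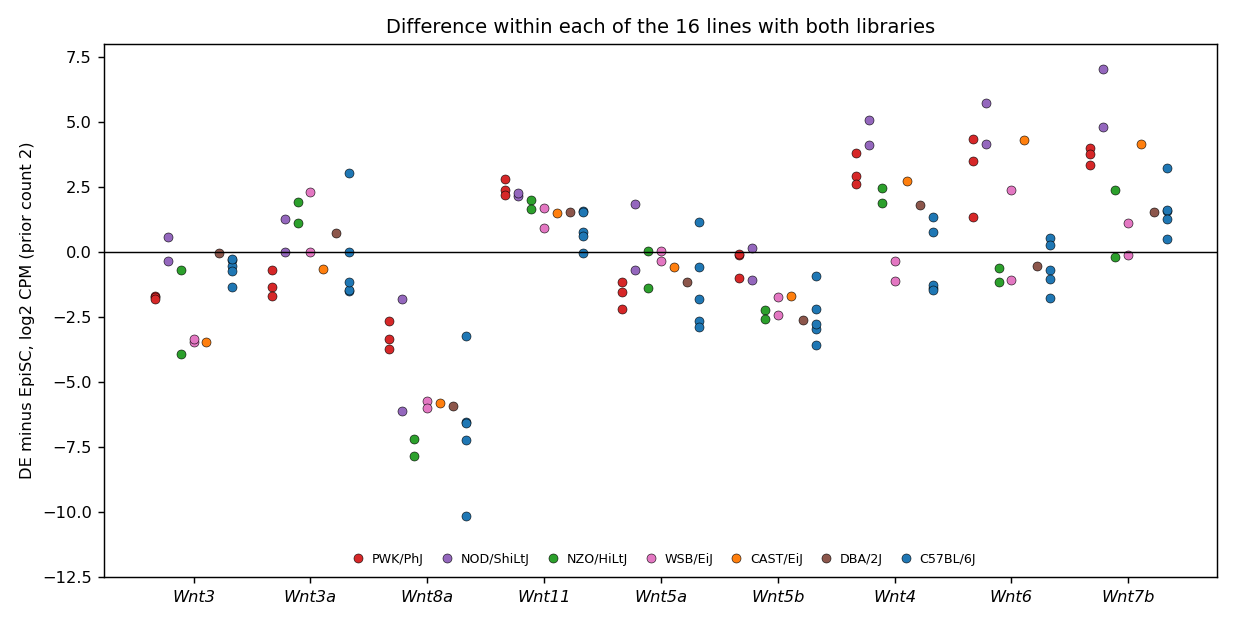
DE minus EpiSC in log2 CPM (y axis, prior count of 2) for each of the 16 lines with both libraries, by gene and coloured by strain, with the line at 0 marking equal levels. Wnt8a lies below 0 in 16 of 16 lines and Wnt11 above it in 15, while Wnt4 and Wnt6 lie on both sides, with each PWK/PhJ and NOD/ShiLtJ line above and 3 of 5 C57BL/6J lines below in each.

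Whether genetic background changes the ligand genes was asked within each cell type, over the 5 strains with at least 2 lines in both. In DE, strain differences were found for 8 of 9 genes (all but Wnt3a; edgeR F test, Benjamini-Hochberg adjusted p from 3.3e-05 for Wnt7b to 0.0344 for Wnt5b), against 22.3% of all 19290 genes tested. Without the NOD/ShiLtJ and AC699 DE libraries the count was 5 of 9, as Wnt3, Wnt5a and Wnt5b no longer passed, against 13.3% of all genes. With the mean log2 CPM of the fibroblast markers as a covariate it was 3 of 9 (Wnt7b, Wnt8a and Wnt11), against 15.1% of all genes. In EpiSC, 3 of the 7 genes tested differed between strains (Wnt3, 0.0148; Wnt11, 0.0164; Wnt5b, 0.0301; edgeR adjusted p), against 40% of all 17868 genes tested, and Wnt6 and Wnt3a had too few counts to be tested there. Without PWK/PhJ line AC705, 1 gene passed in EpiSC, against 30.2% of all genes.

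PWK/PhJ DE was higher than C57BL/6J DE in 7 of 9 genes (edgeR adjusted p under 0.05), against 17.1% of all genes called and 9.66% called higher. Wnt11 had 42, 48.2, 112.5 and 32.4 CPM in PWK/PhJ, against 4.67, 8.32, 8.07, 3.63 and 11.5 CPM in C57BL/6J. All strain contrasts share these C57BL/6J libraries, and the share of all genes without overlap was not counted in any of them. The groups did not overlap, and the log2 fold was 3.09 ± 0.37 (SE; edgeR adjusted p = 3.82e-05). Wnt8a had 149, 230, 442 and 676 counts in PWK/PhJ, against 0, 6, 2, 0 and 0 counts in C57BL/6J. Its fitted log2 fold of 7.79 ± 1.14 (SE; edgeR adjusted p = 0.00033) is no bound, given those counts.

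Wnt4 had 6.81, 9.46, 28.1 and 16.3 CPM in PWK/PhJ DE, against 0.667, 3.29, 0.854, 0.299 and 1.15 CPM in C57BL/6J DE, and the strains did not overlap. Wnt7b had 17, 11, 12.7 and 15.3 CPM in PWK/PhJ DE, against 1.61, 4.98, 1.72, 1.83 and 2.54 CPM in C57BL/6J DE. Wnt7b did not overlap either, and the log2 folds were 3.70 ± 0.63 for Wnt4 (SE; edgeR adjusted p = 0.000798) and 2.55 ± 0.49 for Wnt7b (SE; edgeR adjusted p = 0.00214). Wnt6 had 9, 116, 606 and 241 counts in PWK/PhJ, against 0, 0, 8, 0 and 19 counts in C57BL/6J, and its CPM did not overlap between the strains either (fitted log2 fold 6.25 ± 1.31; edgeR adjusted p = 0.00447).

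The differences of Wnt5b (log2 fold 1.38 ± 0.44; edgeR adjusted p = 0.0443) and Wnt5a (1.29 ± 0.40; edgeR adjusted p = 0.0367) between PWK/PhJ and C57BL/6J DE were smaller, with libraries that overlapped. Without the NOD/ShiLtJ and AC699 DE libraries, Wnt5a (edgeR adjusted p = 0.0927) and Wnt5b (0.116) no longer passed, and the other 5 genes did, against 13.8% of all genes. Leaving out single libraries ended the call of Wnt5a in 7 and that of Wnt5b in 9 of 15 fits. With the mean log2 CPM of the fibroblast markers as a covariate 4 genes passed (Wnt4, Wnt7b, Wnt8a and Wnt11). The share of all genes was 12% (2321, where the fit without the covariate called 3303). Wnt3 did not pass the test (log2 fold 0.53 ± 0.49; edgeR adjusted p = 0.535), and without line AC699 the log2 fold was -0.05. Fibroblast marker sums were 260.0, 690.7, 637.8 and 671.0 CPM in PWK/PhJ DE, against 183.9 to 430.2 CPM in C57BL/6J DE. Of the fibroblast markers 2 of 15 were higher in PWK/PhJ DE by edgeR and 0 lower. The lowest of these PWK/PhJ sums, 260.0 CPM, was in line AC695, where Wnt6 had 9 counts (0.346 CPM, against at most 0.291 CPM in C57BL/6J DE). Against C57BL/6J DE, edgeR also called 4 of 7 epiblast markers in PWK/PhJ DE, 1 upward and 3 downward. It called 1 of 8 streak and mesoderm markers, upward, and 0 of 8 endoderm markers. Line AC699 had a streak and mesoderm sum of 546.2 CPM. The other PWK/PhJ DE lines had 325.5 to 402.8 CPM, against 200.7 to 434.5 CPM in C57BL/6J DE. By CPM, AC699 was also the highest PWK/PhJ DE library for Wnt3, Wnt6, Wnt8a and Wnt11. The part of feeder RNA or of other cell types in these ligand differences was not tested.

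NOD/ShiLtJ DE was higher than C57BL/6J DE in 7 of 9 genes, against 11.4% of all genes called and 7.98% called higher, by edgeR's test. Wnt7b had 121.1 and 39.7 CPM in lines AC576 and AC595 of NOD/ShiLtJ, against 1.61 to 4.98 CPM in C57BL/6J, a log2 fold of 5.12 ± 0.57 (SE; edgeR adjusted p = 0.000144). Wnt4 had 73.6 and 16.9 CPM in those lines, against 0.299 to 3.29 CPM in C57BL/6J, a log2 fold of 5.34 ± 0.71 (SE; edgeR adjusted p = 0.000465). Neither gene overlapped between the strains, and line AC576 held the higher value of both.

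Wnt5a had 30.6 and 31.5 CPM in NOD/ShiLtJ DE, against 2.43 to 10.9 CPM in C57BL/6J DE, and Wnt11 had 30.8 CPM in both NOD/ShiLtJ lines, against 3.63 to 11.5 CPM. Wnt6 had 327 and 67 counts and Wnt8a 96 and 18 counts in NOD/ShiLtJ DE, against at most 19 and 6 counts in a C57BL/6J DE library. None of these 4 genes overlapped between the strains, where the share of all genes without overlap was not counted. Wnt5a (2.55 ± 0.46; edgeR adjusted p = 0.00273), Wnt11 (2.19 ± 0.41; 0.00356), Wnt5b (1.71 ± 0.52; 0.045), Wnt8a (5.46 ± 1.17; 0.00844) and Wnt6 (6.12 ± 1.38; 0.0111) were also higher in NOD/ShiLtJ DE, given as log2 folds with SE. Wnt3 had 48.9 and 35.3 CPM in NOD/ShiLtJ DE, against 11.8 to 24.7 CPM in C57BL/6J DE, and did not pass (1.26 ± 0.58; edgeR adjusted p = 0.196). Leaving out single libraries ended the call of Wnt5b in 11 of 15 fits. Without line AC576, 4 of the 7 calls held and Wnt5b, Wnt6 and Wnt8a no longer passed, while the count over all genes was 406 (2.12%) in place of 2191. Fibroblast markers were higher too, 12 of 15 by the same test, with sums of 1849 and 1669 CPM in NOD/ShiLtJ DE against 183.9 to 430.2 CPM in C57BL/6J DE, and 6 of 8 endoderm markers were lower. The medians of the log2 folds were 3.73 over the fibroblast list and -1.11 over the endoderm list. Of the markers of primitive streak and mesoderm, 8 were tested, 4 were higher (Kdr, Mesp2, Mesp1 and Hand1) and 1 was lower (Eomes), with a median log2 fold of 4.49. The streak and mesoderm sums were 251.3 and 380.7 CPM in NOD/ShiLtJ DE, against 200.7 to 434.5 CPM in C57BL/6J DE, so that the sums overlapped. The part of these other cell types in the ligand differences was not tested. With the mean log2 CPM of the fibroblast markers as a covariate 0 of the 9 genes were called by edgeR, and 37 (0.192%) of all genes.

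NZO/HiLtJ DE and WSB/EiJ DE had 0 of 9 genes called against C57BL/6J by edgeR, where 1.41% and 2.28% of all genes were called. At an unadjusted p under 0.05 there were 2 genes in each contrast, against 11.4% of all genes in NZO/HiLtJ and 12.1% in WSB/EiJ. DESeq2 called 0 of the 9 in NZO/HiLtJ and 1 in WSB/EiJ, against 3.79% and 4.95% of all genes. In NZO/HiLtJ, Wnt11 (14.3 and 18.8 CPM, against 3.63 to 11.5 CPM in C57BL/6J) had a log2 fold of 1.27 ± 0.42 (SE; edgeR adjusted p = 0.194). In WSB/EiJ, Wnt3 had 2.31 and 4.3 CPM, against 11.8 to 24.7 CPM in C57BL/6J, without overlap, and a log2 fold of -2.50 ± 0.72 (SE; edgeR adjusted p = 0.0974). DESeq2 gave a log2 fold of -2.52 for Wnt3 in WSB/EiJ with an adjusted p of 0.00184, and without the filter on low counts edgeR's adjusted p was 4.86e-09. Wnt3 itself passes that filter, so this shift came with a changed fit over all genes. More genes of all kinds were called in WSB/EiJ DE without the filter, and the cause was not tested.

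The single CAST/EiJ DE library, line WM078, had no replicate and was not compared. Its Wnt7b level of 30.2 CPM and Wnt5a level of 27.2 CPM were above the C57BL/6J DE range, as was its fibroblast sum of 849.2 CPM. The DBA/2J DE library had 42.9 CPM of Wnt3 and 23.2 CPM of Wnt11, both above the C57BL/6J range, with the lowest fibroblast sum of the DE libraries (175.7 CPM).

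**Figure D4:**
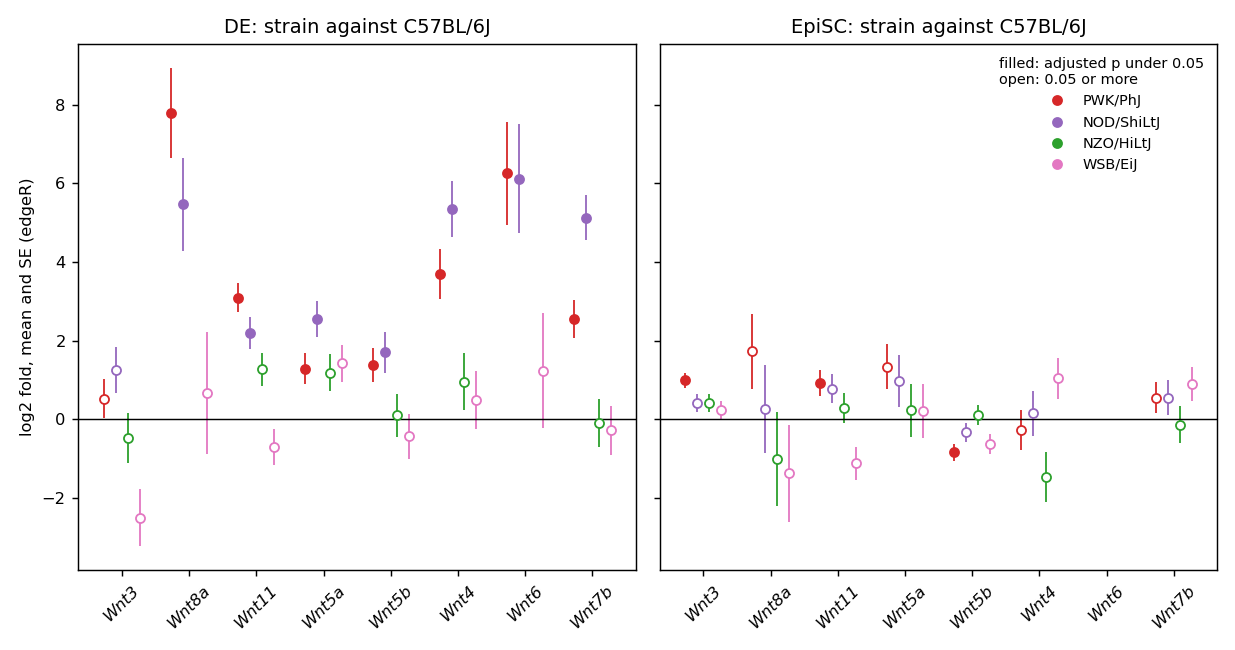
Log2 fold against C57BL/6J (y axis, bars are SE) of 8 genes in DE (left) and EpiSC (right) for PWK/PhJ, NOD/ShiLtJ, NZO/HiLtJ and WSB/EiJ, filled where the edgeR adjusted p is under 0.05. Genes at 0 counts in a whole strain, and Wnt6 in EpiSC, which was not tested, are left out. The filled points in DE are 7 of PWK/PhJ and 7 of NOD/ShiLtJ, and in EpiSC only Wnt3, Wnt11 and Wnt5b of PWK/PhJ are filled.

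In EpiSC, PWK/PhJ differed from C57BL/6J in 3 of 7 genes tested by edgeR, 2 higher and 1 lower, against 29.8% of all genes called, 13.7% higher and 16.1% lower. Wnt3 had 51.8, 56.3 and 67 CPM in PWK/PhJ EpiSC, against 22.8, 36.1, 22, 29.7 and 36.1 CPM in C57BL/6J EpiSC, without overlap, and a log2 fold of 0.99 ± 0.20 (SE; edgeR adjusted p = 0.00198). Wnt5b had 6.13, 5.59 and 6.87 CPM in PWK/PhJ EpiSC, against 10.7, 13.2, 8.68, 7.5 and 15.2 CPM in C57BL/6J EpiSC, again without overlap, and was lower (log2 fold -0.84 ± 0.22; edgeR adjusted p = 0.0127). Wnt11 was higher with overlap (0.93 ± 0.33, edgeR adjusted p = 0.0449), and this call was lost in 13 of 16 leave-one-out fits. The call was also lost with the mean log2 CPM of the fibroblast markers as a covariate (0.60, edgeR adjusted p = 0.207). Without line AC695 or AC698 1 gene was called, against 20% and 19.6% of all genes, and without C57BL/6J line 5-1 5 were, against 35.7%. The fibroblast sums were 3486, 2802 and 3725 CPM in PWK/PhJ EpiSC and 150.0 to 3650 CPM in C57BL/6J EpiSC.

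Wnt8a in EpiSC was 58, 110.4 and 65.6 CPM in PWK/PhJ, against 9.47, 31.7, 0.846, 5.88 and 71.2 CPM in C57BL/6J. The spread within C57BL/6J was wide, and the log2 fold of 1.73 ± 0.96 (SE) did not pass (edgeR adjusted p = 0.194). Without C57BL/6J line 5-1, which holds the 71.2 CPM, the log2 fold was 2.71 and the edgeR adjusted p 0.0384. Wnt5a did not overlap between the strains, with 42, 34.3 and 40.2 CPM in PWK/PhJ EpiSC against 4.89, 14.7, 10, 15.6 and 31.6 CPM in C57BL/6J EpiSC, and did not pass (1.34 ± 0.58; edgeR adjusted p = 0.103). C57BL/6J line 5-1 also had the highest fibroblast sum of the C57BL/6J EpiSC lines (3650 CPM).

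CAST/EiJ EpiSC had 2 of 7 genes higher than C57BL/6J, against 31.6% of all genes called by edgeR, with 14.5% called higher. Wnt7b had 1.62 and 2.65 CPM in CAST/EiJ, against 0.474 to 1.21 CPM in C57BL/6J (log2 fold 1.49 ± 0.42; edgeR adjusted p = 0.0147). Wnt5b had 17.8 and 18.7 CPM in CAST/EiJ, against 7.5 to 15.2 CPM in C57BL/6J (0.73 ± 0.24; edgeR adjusted p = 0.0326). Without line WM080 neither gene was called, and 1 was without line WM078, C57BL/6J line 4 or C57BL/6J line 44. The shares of all genes called in those fits were 15.9%, 18.5%, 31.8% and 29%. Definitive endoderm markers were higher in CAST/EiJ EpiSC too, 5 of 8 by the same test with a median log2 fold of 1.92, and their sums of 1225 and 1032 CPM in CAST/EiJ did not overlap the 36.2 to 366.5 CPM in C57BL/6J. Of the fibroblast markers 1 of 15 was lower and 0 were higher, with sums of 2820 and 1841 CPM in CAST/EiJ EpiSC against 150.0 to 3650 CPM in C57BL/6J EpiSC. With the mean log2 CPM of the fibroblast markers as a covariate Wnt7b was called (log2 fold 1.34, edgeR adjusted p = 0.03). Wnt5b was not called in that fit (0.60, edgeR adjusted p = 0.065), against 33.1% of all genes. The part of endoderm cells in the Wnt7b and Wnt5b differences was not tested.

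In NOD/ShiLtJ, NZO/HiLtJ and WSB/EiJ EpiSC 0 of 7 genes were called by edgeR and by DESeq2, where edgeR called 12.9%, 5.52% and 7.41% of all genes. At an unadjusted p under 0.05 there were 0, 1 and 2 of the 7, against 30%, 21.6% and 19.5% of all genes. The build mm10, which is the C57BL/6J genome, served as the reference for every strain. In each strain contrast above, a difference in alignment can therefore look like a difference in expression. This limit covers the PWK/PhJ and CAST/EiJ calls as well, in DE and in EpiSC.

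Whether the change between cell types depends on strain was tested as an interaction over the same 5 strains. Of the 9 genes, 7 passed (Wnt7b, Wnt4, Wnt5b, Wnt6, Wnt3, Wnt11 and Wnt8a; edgeR adjusted p from 0.00136 to 0.0495), against 10.7% of all genes. With the cell line as a block, 3 passed (Wnt7b, Wnt4 and Wnt3), against 5.32% of all genes, and without the NOD/ShiLtJ and AC699 DE libraries 2 passed (Wnt3 and Wnt4), against 6.38%. With RLE scaling in place of TMM, Wnt8a (edgeR adjusted p = 0.0542) and Wnt11 (0.0628) did not pass, which left 5, against 10.7% of all genes. The calls of Wnt8a, Wnt11, Wnt6 and Wnt3 lay near the threshold and were lost in 24, 26, 18 and 21 of 31 leave-one-out fits.

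The change between cell types in PWK/PhJ minus that in C57BL/6J was positive for 5 of 9 genes by edgeR, against 6.67% of all genes called and 3.97% called higher. Wnt4 was higher in DE than in EpiSC by 2.62 to 3.82 on the log2 CPM scale in the 3 PWK/PhJ lines with both libraries, whereas the differences ran from -1.45 to 1.34 in the 5 C57BL/6J lines. The fitted difference was 3.97 ± 0.88 on the log2 scale (SE; edgeR adjusted p = 0.00582). Wnt5b had 3.04, 5.09 and 6.52 CPM in DE of those PWK/PhJ lines (AC695, AC698 and AC705) and 6.13, 5.59 and 6.87 CPM in their EpiSC. In C57BL/6J its difference between the cell types ran from -3.57 to -0.91 on the log2 CPM scale, and the fitted difference between the strains was 2.25 ± 0.51 (SE; edgeR adjusted p = 0.0073).

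Wnt11 (2.18 ± 0.52; edgeR adjusted p = 0.0108), Wnt8a (6.21 ± 1.62; 0.0222) and Wnt6 (5.71 ± 1.63; 0.0344) were the other 3 genes of this contrast, and those of Wnt8a and Wnt6 rest on few C57BL/6J counts. With the cell line as a block Wnt6 had a difference of 4.48 and an edgeR adjusted p of 0.11. Without line AC699 and the NOD/ShiLtJ DE libraries, Wnt6 (4.15; 0.108) and Wnt11 (1.58; 0.0541) did not pass.

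The genes through which the ligands act were counted from lists of pathway members. Of the 10 genes listed under Wnt secretion, 10 were higher in DE and 0 lower, beside 77.2% of all genes called, 37.3% higher and 39.9% lower. Their median log2 fold was 0.98, against -0.06 over all genes. The list is wider than secretion, as it also holds Notum and Trabd2b, which act against the ligands. Porcn, the enzyme that attaches the lipid, averaged 32 ± 16 CPM in DE and 8.84 ± 2.16 CPM in EpiSC (SD, n = 17 each), and Notum, an enzyme that removes it, 1.72 ± 3.71 CPM in DE and 0.222 ± 0.106 CPM in EpiSC. The cargo receptor Tmed2 had a log2 fold of 1.61 ± 0.09 (SE; edgeR adjusted p = 5.09e-17).

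Of the 16 receptors, 7 were higher and 7 lower in DE, beside 37.3% of all genes higher and 39.9% lower. The Frizzled receptor Fzd8 averaged 513.8 ± 281.2 CPM in DE and 21.8 ± 14.3 CPM in EpiSC (SD, n = 17 each), and Fzd5 (log2 fold 1.49 ± 0.24) and Ror1 (2.04 ± 0.23), a receptor of the polarity branch, also rose. The co-receptor Lrp5 averaged 10.1 ± 9.01 CPM in DE and 154.0 ± 25.7 CPM in EpiSC (SD, n = 17 each), and Lrp6 43.7 ± 11.7 CPM in DE and 169.5 ± 12 CPM in EpiSC. Fzd4 averaged 1.09 ± 0.792 CPM in DE and 16.1 ± 10.9 CPM in EpiSC. All 3 fell, with log2 folds of -4.08 for Lrp5, -1.96 for Lrp6 and -3.83 for Fzd4.

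Secreted antagonists were 6 higher and 4 lower of 11 tested. For this list and the next, the share of all genes was 37.3% higher and 39.9% lower. Cer1, a Nodal, BMP and Wnt antagonist that also served as an endoderm marker, averaged 5754 ± 2673 CPM in DE and 143.9 ± 228.0 CPM in EpiSC, and Dkk1, which blocks Lrp5 and Lrp6, 387.7 ± 182.7 CPM in DE and 13.4 ± 18.4 CPM in EpiSC (SD, n = 17 each). Sfrp5, a decoy that binds ligands, also rose (log2 fold 6.48 ± 0.42), and Dkk2 (-3.55 ± 0.51), Dkk3 (-1.82 ± 0.55) and Sfrp2 (-0.92 ± 0.21) fell. Of the R-spondin module, which sets the number of receptors at the surface, 2 of 9 genes rose (Rnf43, 0.99 ± 0.19, and Lgr5, 0.83 ± 0.28) and 7 fell, among them Rspo3 (-3.05 ± 0.62), Znrf3 (-1.86 ± 0.14) and Lgr4 (-1.74 ± 0.16), given as log2 folds with SE by edgeR. Without the strain term Dkk3 (-1.18; edgeR adjusted p = 0.0727) and Lgr5 (0.44; 0.323) did not pass.

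The intracellular genes of the canonical pathway were 6 higher and 6 lower of 14. For these and the polarity genes below, the share of all genes was 37.3% higher and 39.9% lower. Tcf7l2, a transcription factor of the pathway, averaged 355.3 ± 159.5 CPM in DE and 30.6 ± 14.3 CPM in EpiSC (SD, n = 17 each), and the coactivator Bcl9 20.1 ± 6.21 CPM in DE and 119.6 ± 12.1 CPM in EpiSC. Pygo2 (log2 fold 0.83 ± 0.05) and Tcf7l1 (0.60 ± 0.12) also rose, and Apc (-1.81 ± 0.08), part of the complex that degrades β-catenin, and Bcl9l (-1.50 ± 0.15) fell. Of 10 polarity genes 1 rose (Vangl1, log2 fold 0.84 ± 0.13) and 4 fell, among them Celsr3 (-4.97 ± 0.20), Celsr2 (-3.07 ± 0.14) and Scrib (-1.99 ± 0.12).

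**Figure D5:**
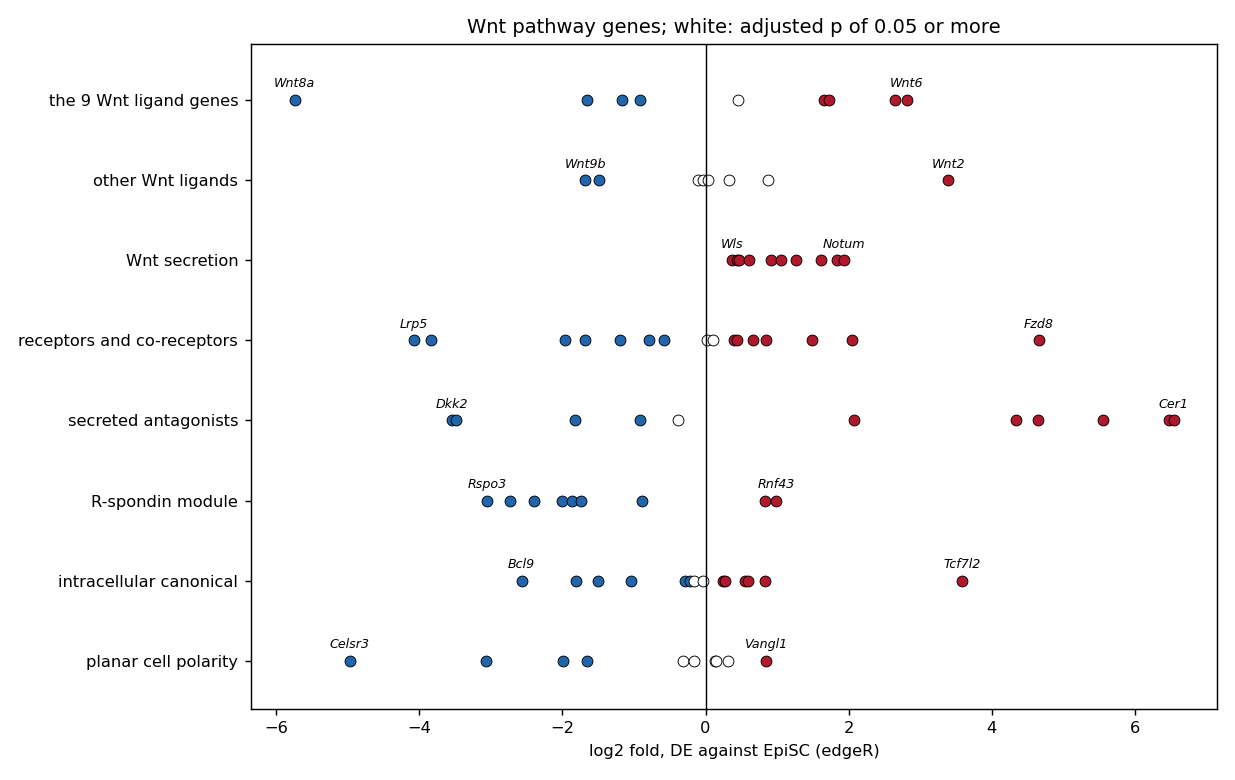
Log2 fold of DE against EpiSC (x axis, edgeR) of every tested gene of each Wnt pathway list, red where higher and blue where lower at an adjusted p under 0.05, white otherwise, with the extremes of each list named. All 10 genes of the secretion list lie above 0, 7 of 9 R-spondin genes below it, and the 9 ligand genes spread from -5.74 to 2.81.

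Of the other 10 Wnt ligand genes, 8 were tested and 1 was higher and 2 lower in DE by edgeR. Of all genes 77.2% were called, 37.3% higher and 39.9% lower. By median, Wnt2 had 1.65 CPM in DE and 0.147 CPM in EpiSC, and Wnt9a 4.69 CPM in DE and 4.56 CPM in EpiSC. Wnt2b had 0.488 CPM in DE and 1.62 CPM in EpiSC, and Wnt9b 0.26 CPM in DE and 1.01 CPM in EpiSC, while the rest had medians under 0.5 CPM. Wnt2 was the one called higher, and Wnt2b and Wnt9b were lower. Wnt2 reached 47.3 CPM in NZO/HiLtJ line AC653, so that the 19 ligand genes there summed to 37.2 CPM per kb where the 9 genes gave 15.1. For strain in DE, 7 of the other 10 were tested and 3 were called by edgeR, against 22.3% of all genes.

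The genes most like a member were taken as the 2 with the highest Pearson r of log2 CPM over the 17 libraries of a cell type, as a description of patterns that share libraries and depth. In DE, Wnt4 was most like Arl4c and Pou5f1 (r = 0.93 each), Wnt7b most like Cltb and Sri (0.94 and 0.93), Wnt3 most like Tdgf1 (0.89), Wnt5a most like Vps13a and Il1rap (0.87 each), Wnt11 most like Mdm1 (0.91) and Wnt5b most like Dusp4 and Efnb2 (0.91 and 0.88), over 11542 genes compared. In EpiSC, Wnt5a was most like Angptl2 and Tmem173 (0.98 each) Wnt8a most like Neto2 and Fubp3 (0.91 and 0.89), Wnt3 most like Secisbp2 and Syndig1 (0.91 each) and Wnt7b most like Ly6a and Man2b2 (0.88 and 0.86). The 2 closest genes were Chrnb1 and Creb5 for Wnt4 (0.80 and 0.77), Mcee and Cmas for Wnt5b (0.89 and 0.84) and Serpinb6a and Urm1 for Wnt11 (0.84 and 0.83), over 12077 genes compared.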

How the data were processed

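EpiSC and DE libraries were grouped by strain and cell type as the labels give them. The deposited values are whole-number counts per gene, with no scaling. Per the submitters' processing notes the tools named are STAR 2.4, HTSeq 0.6.1 and DESeq2 (no version), with the build mm10. The sources used here do not give the annotation, the strand setting or how multiply aligned reads were handled. CPM used TMM library sizes, and CPM per kb used union exon lengths of GENCODE M21 (GRCm38).

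The test was edgeR 4.0.16 in R 4.3.3 (TMM, robust quasi-likelihood F test, Benjamini-Hochberg adjustment over all genes, threshold 0.05). Genes entered with 10 or more counts in 3 or more of the libraries fitted. DE against EpiSC used all 34 libraries with strain as a term, the strain tests the 17 libraries of a cell type, and the interaction all 34. Alternatives were DESeq2 1.42.0, RLE scaling, no filter on low counts, no strain term, a fibroblast covariate, a cell line block and leave-one-out. The fibroblast covariate was the centred mean log2 CPM of the fibroblast markers, not their summed CPM. The removal of 3 doubted DE libraries was chosen after seeing the data. The code was tested on simulated data.

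Members and lists were chosen with earlier results of these data known. Members were named by the given rule. From each pathway list and direction, up to 3 called genes with the largest fold and a mean of at least 1 CPM in a cell type could be named, and other Wnt ligands needed a median of 0.5 CPM.

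DE and EpiSC libraries of 16 lines are paired by their origin in the same cell line. Their deviations from the group means had r between -0.0216 and 0.275 in the 14 lines where this could be computed (median 0.0541). No replicate library was a duplicate within sampling noise (chi-square over its degrees of freedom at least 31.5 in DE and 6.57 in EpiSC). Libraries of one cell type are separate lines, and p-values measure the spread between lines. Reads carry no molecular identifiers, so limits from 3 counts cover counting error only.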

Additional observations from a re-analysis of the deposited data

Results flagged for a closer look

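Single libraries far from the others of their group were found in 3 of 27 groups of 4 or 5 libraries. Chance gives about 1 in 20 for normally distributed values only. Groups with libraries tied at 0 counts do not hold such values, so the rates cannot be compared. Wnt3 in DE of PWK/PhJ line AC699 stood at 5.73 log2 CPM, where the other 3 PWK/PhJ DE libraries were at 4.00 to 4.24. Wnt3a in DE of C57BL/6J line 44 stood at -0.97 log2 CPM, from 12 counts, where the other 4 held 0 counts (-4.00). Wnt8a in DE of C57BL/6J line 2 stood at -1.57 log2 CPM, from 6 counts, where the others were at -4.00 to -3.38. Line AC699 is also the PWK/PhJ DE library with the lowest endoderm marker sum (4693 CPM), and it has no EpiSC library here. The part of that in its Wnt3 level was not tested.

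In the edgeR interaction test of strain and cell type 7 of 9 genes were called, against 10.7% of all genes. The edgeR adjusted p was 0.00136 for Wnt7b, 0.00176 for Wnt4, 0.0105 for Wnt5b, 0.037 for Wnt6, 0.042 for Wnt3, 0.0484 for Wnt11 and 0.0495 for Wnt8a. The calls of Wnt6, Wnt3, Wnt11 and Wnt8a were lost in 18, 21, 26 and 24 of 31 leave-one-out fits. For PWK/PhJ minus C57BL/6J, where edgeR called 6.67% of all genes, the difference of the log2 folds was 6.21 for Wnt8a, 5.71 for Wnt6, 3.97 for Wnt4, 2.25 for Wnt5b and 2.18 for Wnt11.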

How the results depend on the processing

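In DE against EpiSC, 8 of 9 ligand genes were called in each of 34 leave-one-out fits, and Wnt3a, uncalled, changed sign under the cell line block (-0.04) and ranged from -0.31 to 0.66 when 1 library was left out. The cause of the shifts that follow was not tested. Without the low-count filter, genes called were 6782 for strain in DE, 3342 for NOD/ShiLtJ, 1054 for NZO/HiLtJ and 1241 for WSB/EiJ in DE (2 ligand genes in each of the last pair), 4155 for the interaction and 2150 for its PWK/PhJ term. DESeq2 called 1817 genes for NZO/HiLtJ EpiSC, 731 for NZO/HiLtJ DE, 955 for WSB/EiJ DE (1 ligand gene) and 3849 for the interaction. The fibroblast covariate left 3 ligand genes for strain in DE, 4 for PWK/PhJ DE, 0 for NOD/ShiLtJ DE (37 genes in all), and 1 for CAST/EiJ EpiSC. In WSB/EiJ EpiSC it gave 1 ligand gene, where the fit without it called 0 of 7. The share of all genes called with the covariate in WSB/EiJ EpiSC is not given here, so that gene is no result about the ligands. The cell line block gave 3 ligand genes and 1104 genes for the interaction and 798 genes for its PWK/PhJ term. Without the NOD/ShiLtJ and AC699 DE libraries, 5 ligand genes and 2504 genes were called for strain in DE, 2 and 1321 for the interaction and 3 ligand genes for its PWK/PhJ term, and Wnt3 in PWK/PhJ DE was -0.05.

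With 1 library left out, ligand genes called ranged from 1 to 3 for strain in EpiSC, 5 to 8 for strain in DE, 1 to 5 for PWK/PhJ EpiSC (3457 to 6368 genes), 0 to 1 for NOD/ShiLtJ EpiSC (848 to 3433), 0 to 2 for CAST/EiJ EpiSC (2827 to 5961), 4 to 7 for NOD/ShiLtJ DE (406 to 3063), 0 to 1 for WSB/EiJ DE (135 to 558), 3 to 7 for the interaction (1452 to 3195) and 3 to 6 for its PWK/PhJ term (811 to 1963). All genes ranged from 242 to 1718 for NZO/HiLtJ EpiSC, 526 to 1453 for WSB/EiJ EpiSC and 84 to 352 for NZO/HiLtJ DE, and Wnt3 in PWK/PhJ DE from -0.05 to 0.70. A strain's only library was left out in DE against EpiSC alone. Depth limits Wnt3a and Wnt6 most, with libraries at 0 counts in both cell types.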
